A study of Mus musculus with 12 samples.

Results

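Kruppel-like factors (KLFs) are zinc-finger transcription factors, and the transcripts of 8 KLF genes (Klf2, Klf3, Klf4, Klf6, Klf7, Klf9, Klf10 and Klf13) were followed in mouse LSKs. LSKs are the lineage-negative, Sca1-positive, c-Kit-positive fraction of bone marrow, which holds hematopoietic stem cells and multipotent progenitors. The 8 genes were chosen by name from a table of 53465 genes, in which the KLF family has 17 members and the related SP family has 9. They and the gene lists used below were chosen with earlier results of these data known. Their counts beside the share of all genes are therefore a description and no independent support. All 12 RNA-seq libraries were used, in 4 groups of 3: untreated Tespa1+/+ LSKs, untreated Tespa1-/- LSKs, and LSKs of each genotype 9 days after an injection of 5-fluorouracil (5-FU), an antimetabolite that kills cycling cells. Tespa1-/- mice carry a germline null allele (B6.129S-Tespa1 tm1Smoc) in every tissue, so an effect of the LSKs' own loss and an effect of other cells on LSKs cannot be told apart. The line had been backcrossed to C57BL/6 for more than 6 generations, the labels call the Tespa1+/+ mice littermates, and the study worked with males of 8 to 10 weeks. The sources used here name no vehicle injection for the untreated mice.

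Tespa1 is an adaptor protein first described in thymocytes. Its own transcript, the check of the genotype labels, was at 43.0 to 49.8 CPM (read counts relative to library size) in untreated Tespa1+/+ libraries and at 34.5 to 35.0 CPM in untreated Tespa1-/- libraries. After 5-FU it was at 47.2 to 57.5 CPM in Tespa1+/+ and at 17.3 to 20.8 CPM in Tespa1-/- libraries. The genotypes did not overlap in either condition, with log2 fold changes of -0.42 ± 0.09 (adjusted p = 0.0316) and -1.47 ± 0.12 (adjusted p = 9.38e-05, both edgeR), but the mutant libraries kept Tespa1 reads, and the gene-level counts do not show which exons these came from. Kit, which encodes the c-Kit receptor, was at 387 to 430.4 CPM in untreated Tespa1+/+, 355 to 367 CPM in untreated Tespa1-/-, 460.0 to 474 CPM in Tespa1+/+ after 5-FU and 328 to 349 CPM in Tespa1-/- libraries after 5-FU. Ly6a, which encodes Sca1, was at 18.4 to 26.2, 12.5 to 25.4, 21.2 to 45.2 and 10.6 to 20.2 CPM in the same order, so that both sort markers were lower in Tespa1-/- libraries after 5-FU without overlap. Library totals ran from 22118154 to 28275079 counts, so that a count of 3 stood for 0.106 to 0.136 CPM. The 8 KLF genes had at least 219 counts in every library. The labels do not state whether libraries of a group came from separate mice, so p-values measure the spread between these libraries, which may be technical.

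KLF proteins share 3 zinc fingers at their carboxyl end that bind GC-rich and CACCC sequences, and they differ in the part that recruits other proteins. Klf2, Klf4, Klf6 and Klf7 mostly activate transcription through histone acetyltransferases such as p300 and CBP. Klf3 represses through CtBP corepressors, and Klf9, Klf10 and Klf13 recruit the Sin3A repressor complex. In blood cells the family is known for restraining proliferation and setting lineage choice: Klf2 maintains quiescence and trafficking of lymphocytes, Klf4 drives monocyte differentiation, and several members are early-response genes whose transcripts appear and decay within a short time of a stimulus.

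Promoter windows from RefSeq (GRCm38.p6, 250 bases before to 50 bases after the transcript start) matched 7 of the 8 genes. The 250 bases upstream of the start are given for Klf2, Klf4 and Klf6, because these are the members that fell together in untreated Tespa1-/- LSKs. Each is written 5′ to 3′ on the strand of the gene. Klf2 lies at chr8:72318812-72319061 on the plus strand, Klf4 at chr4:55532476-55532725 on the minus strand and Klf6 at chr13:5861239-5861488 on the plus strand. Capitals mark a MEF2 site in Klf2 and the E-box CACGTG in Klf4 and Klf6.
Klf2: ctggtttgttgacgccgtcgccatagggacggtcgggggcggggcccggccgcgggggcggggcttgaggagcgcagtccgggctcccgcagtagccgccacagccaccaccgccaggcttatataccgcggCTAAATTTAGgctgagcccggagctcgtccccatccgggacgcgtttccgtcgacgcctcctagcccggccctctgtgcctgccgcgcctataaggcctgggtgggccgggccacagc
Klf4: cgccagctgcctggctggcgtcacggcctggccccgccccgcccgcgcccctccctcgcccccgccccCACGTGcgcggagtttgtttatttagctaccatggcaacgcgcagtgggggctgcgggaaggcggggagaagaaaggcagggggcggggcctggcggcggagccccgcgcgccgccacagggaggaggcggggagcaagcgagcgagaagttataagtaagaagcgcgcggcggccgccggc
Klf6: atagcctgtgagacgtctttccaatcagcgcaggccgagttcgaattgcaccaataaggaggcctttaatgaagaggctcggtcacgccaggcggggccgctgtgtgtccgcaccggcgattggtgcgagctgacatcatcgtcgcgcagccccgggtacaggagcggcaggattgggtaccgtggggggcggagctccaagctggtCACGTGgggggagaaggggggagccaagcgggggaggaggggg
MEF2 factors, which relay signals of the ERK5 kinase, bind MEF2 sites, and factors of the MYC and USF families bind the E-box. Over the 300-base windows and on both strands, the MEF2 site was found in Klf2 alone among the 7 windows and in 3.26% of the 27025 genes with a window (1 window a gene). The E-box was found in Klf4 and Klf6, and in 7.24% of all windows. CACCC was found in 5 of the 7, namely Klf2, Klf3, Klf7, Klf9 and Klf13, and in 56.7% of all windows. The cyclic AMP response element TGACGTCA and the CArG box of serum response factor were in none of the 7 windows and in 1.88% and 1.57% of all. The motifs marked here do not overlap each other. A match describes letters only, and binding was not measured.

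Levels of different genes were compared per length, as FPKM from the deposited table, the fragments of a gene divided by its length and by the library total. Klf2 and Klf6 led the order in each of the 4 groups. In untreated Tespa1+/+ LSKs the mean level was 245 ± 12.2 FPKM for Klf2 (SD, n = 3, as for all means here) and 99.3 ± 3.35 FPKM for Klf6. Klf4 with 33.0 ± 5.43 FPKM and Klf13 with 29.3 ± 2.11 FPKM followed, and their ranges overlapped. Klf10 at 15.1 ± 6.54 FPKM and Klf9 at 9.29 ± 1.41 FPKM overlapped as well, while Klf3 at 2.67 ± 0.145 FPKM and Klf7 at 1.51 ± 0.0985 FPKM closed the order without overlap. Klf4 stood below Klf13 in the other 3 groups, where their ranges did not overlap. Klf10 and Klf9 overlapped in both Tespa1-/- groups but not in Tespa1+/+ LSKs after 5-FU, and Klf3 and Klf7 overlapped only in Tespa1-/- LSKs after 5-FU.

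The summed level of the 8 genes was 435 ± 25.9 FPKM in untreated Tespa1+/+ LSKs and 277 ± 7.18 FPKM in untreated Tespa1-/- LSKs. After 5-FU it was 253 ± 5.67 FPKM in Tespa1+/+ and 226 ± 4.46 FPKM in Tespa1-/- LSKs. Klf2 made up 56.3% ± 1.10 of this sum in untreated Tespa1+/+ LSKs and 37.3% ± 0.951 in Tespa1+/+ LSKs after 5-FU. In Tespa1-/- LSKs its share was 50.9% ± 1.70 untreated and 46.4% ± 1.19 after 5-FU. The 8 genes carried 82.6% to 92.8% of the summed FPKM of the 17 KLF genes, the lowest shares being those of Tespa1-/- LSKs after 5-FU.

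**Figure D1:**
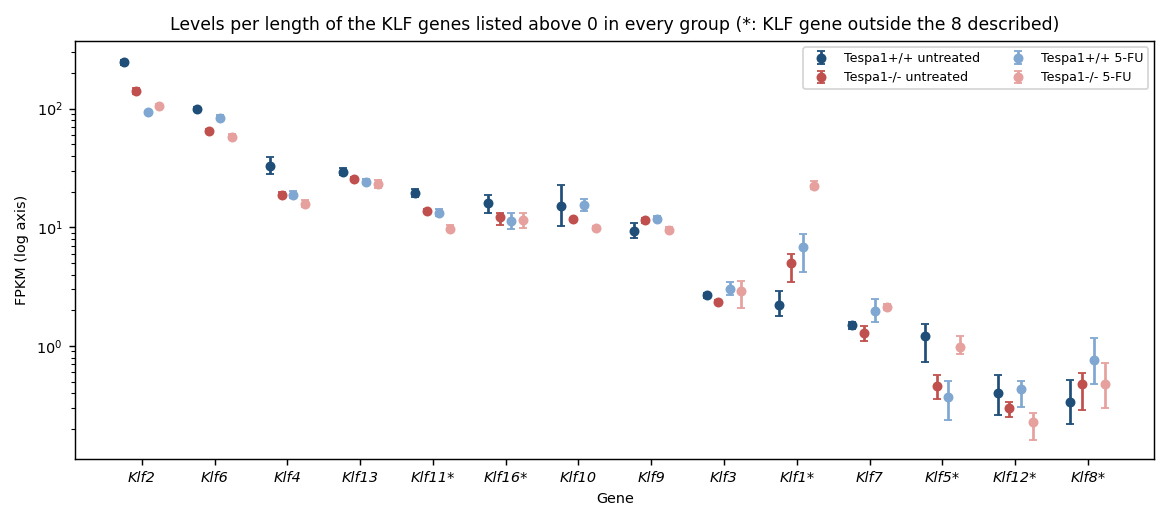
Mean FPKM (log axis) of the 14 KLF genes whose mean lay above 0 in every group, ordered by their level in untreated Tespa1+/+ LSKs. Points are means of 3 libraries and bars run from the lowest to the highest library. Klf2 and Klf6 stand above the other KLF genes in all 4 groups, and Klf1 is the gene whose position moved most, from 2.21 FPKM in untreated Tespa1+/+ LSKs to 22.3 FPKM in Tespa1-/- LSKs after 5-FU.

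The first comparison asked how untreated Tespa1-/- LSKs differ from Tespa1+/+ LSKs. Klf2, Klf4 and Klf6 fell in untreated Tespa1-/- LSKs by factors of 1.54 to 1.77. Members were tested in a fit over all 17055 genes that passed the count filter, by the quasi-likelihood test of edgeR with p-values adjusted after Benjamini and Hochberg, and a gene was called at an adjusted p below 0.05. Called in this way were 3 of 8 members lower, against 3.59% of all genes tested, and 0 of 8 higher, against 1.64%. Upwards, 1 member had an unadjusted p below 0.05 (Klf9), and DESeq2 called 0. The median log2 fold change was -0.31 over the 8 members and 0.01 over all genes. The groups did not overlap, with Tespa1-/- below, for 5 of 8 members and for 13.2% of all genes.

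Klf2 was at 480.4, 453 and 439 CPM in the untreated Tespa1+/+ libraries and at 245, 274 and 268 CPM in the untreated Tespa1-/- libraries. Every mutant library was far below every control library. The fitted log2 fold change was -0.80 ± 0.06 (SE), a 1.74-fold decrease (adjusted p = 1.86e-04, edgeR).

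Klf4, a regulator of monocyte differentiation and of cell-cycle exit, was at 173, 143 and 126 CPM in Tespa1+/+ and at 79.5, 82.6 and 87.6 CPM in Tespa1-/- LSKs. The control libraries were more spread than the mutant libraries, and the groups did not overlap. Klf4 fell by 0.82 ± 0.11 on the log2 scale (adjusted p = 0.00438, edgeR).

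Klf6, which is needed for early blood formation in the embryo and is induced in activated cells, was at 542, 531 and 569 CPM in Tespa1+/+ and at 367, 350.5 and 349.6 CPM in Tespa1-/- LSKs. The gap between the groups was several times the spread within them. Klf6 fell by 0.62 ± 0.04 on the log2 scale (adjusted p = 1.71e-04, edgeR). Klf7, the activator best known from neuronal development, was at 12.4, 13.7 and 14.3 CPM against 13.1, 9.72 and 11.4 CPM, and these groups overlapped (adjusted p = 0.503, edgeR).

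Among the repressors, Klf3 was at 39.0, 37.4 and 41.7 CPM in Tespa1+/+ and at 35.6, 34.0 and 34.0 CPM in Tespa1-/- LSKs. Klf13, which binds the Ccl5 promoter in T cells, was at 269, 237 and 242 CPM against 209, 225 and 216 CPM. Neither gene overlapped between the groups, and neither passed the test, with an adjusted p of 0.304 for Klf3 and 0.113 for Klf13 (edgeR). DESeq2 called Klf13, with an adjusted p of 0.0455, in a range of 0.0455 to 0.333 over the 13 alternatives. Klf9, a direct target of glucocorticoid and thyroid hormone receptors, was at 35.7, 26.8 and 29.6 CPM against 39.5, 35.5 and 37.7 CPM. Its fitted difference pointed upwards, at 0.29 ± 0.12 on the log2 scale, without passing (adjusted p = 0.254, edgeR).

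Klf10, a gene induced early by TGF-beta, was at 147, 66.8 and 82.8 CPM in untreated Tespa1+/+ LSKs and at 76.3, 76.8 and 75.6 CPM in untreated Tespa1-/- LSKs. Replicate 1 of the control stood apart from the other two, whose values lay on either side of the mutant libraries. The log2 fold change was -0.37 ± 0.25 (adjusted p = 0.482, edgeR) and 0.03 ± 0.10 without that library. The same library was the highest of its group for 5 of 8 members, namely Klf2, Klf4, Klf9, Klf10 and Klf13. Its summed level of 16 early-response genes, in which the most abundant genes weigh most, was 10850 CPM, the lowest of the 3.

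Cell type markers also differed between the untreated genotypes. Of 10 LSK and stem cell genes, 3 were called lower in Tespa1-/- LSKs (Cd34, Flt3 and Mecom), with sums of 1334 to 1386 CPM against 1600.0 to 1672 CPM in Tespa1+/+. Among 8 B cell genes, of which 7 were tested, Cd79a, Pax5 and Ebf1 were called lower, and the sums were 42.2 to 48.2 CPM against 64.1 to 77.1 CPM. The 5 megakaryocyte genes, of which 4 were tested, summed to 61.2 to 63.5 CPM against 32.4 to 37.2 CPM. Of these Itga2b, an integrin of platelets, was called higher, and Ppbp was at or below 3 counts in every untreated library. Csf1r and Ly6c2 were called higher among 8 monocyte genes, whose sums were 275 to 296 CPM against 240 to 268 CPM, and Car1 among 8 erythroid genes, with overlapping sums of 161 to 171 CPM against 144 to 171 CPM. The 10 neutrophil genes, of which 4 were tested and 0 called (3 at an unadjusted p below 0.05 and 1 by DESeq2, all higher), summed to 4.74 to 5.94 CPM against 0.770 to 1.56 CPM, with S100a8 and S100a9 below 2 CPM in every untreated library. Of the T and NK cell genes and of the endothelial genes, 3 each were tested, with 0 called, 0 at an unadjusted p below 0.05 and 0 by DESeq2. In bulk RNA, fewer cells of a type and less RNA per cell cannot be told apart, and the part of these transcripts in the differences of Klf2, Klf4 and Klf6 was not tested.

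**Figure D2:**
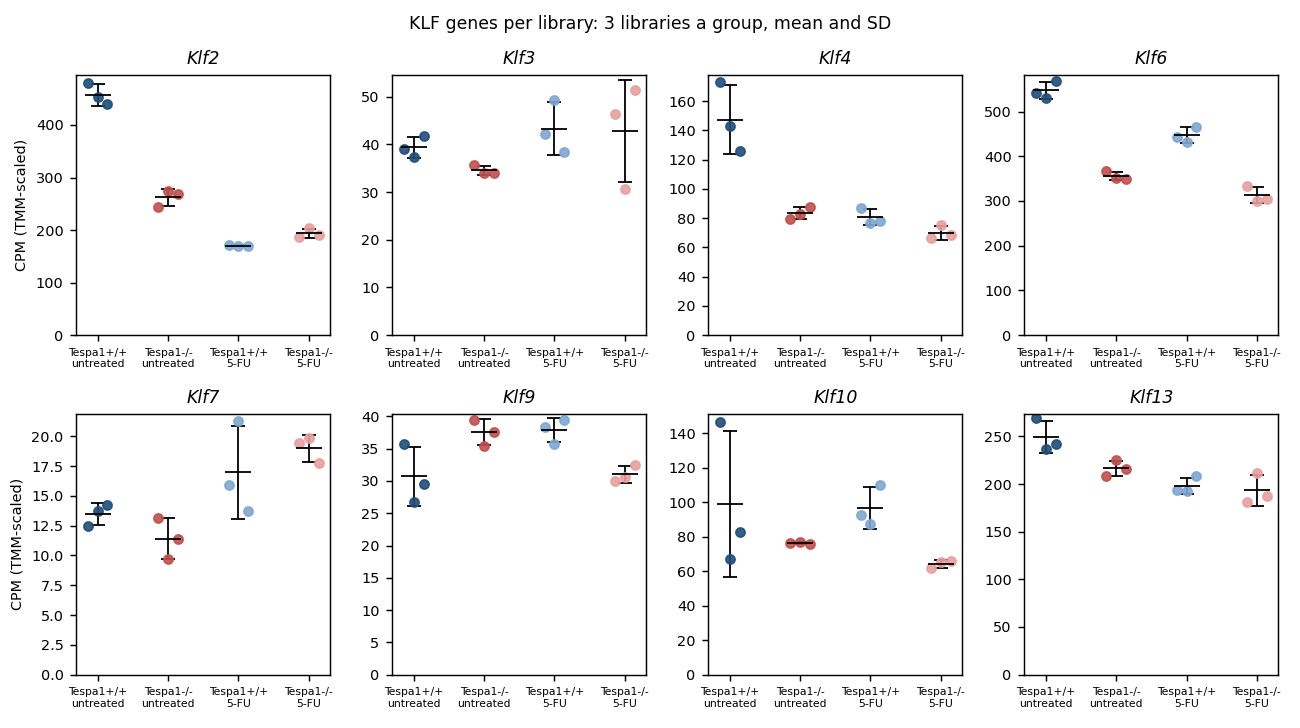
CPM, scaled by the trimmed mean of M-values (TMM), of each of the 8 KLF genes in every library, with 4 groups of 3 libraries on the x axis. Points are libraries, the horizontal mark is the mean and the bar is the SD, and every y axis starts at 0. Klf2, Klf4 and Klf6 are highest in untreated Tespa1+/+ LSKs, and the 147 CPM point of Klf10 is replicate 1 of that group.

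The second comparison asked how the genotypes differ at day 9 after 5-FU, when the marrow regenerates. Klf6 and Klf10 fell in Tespa1-/- LSKs, while Klf2 and Klf4 did not pass the test. Called were 2 of 8 members lower, against 5.78% of the 17239 genes tested, and 0 of 8 higher, against 7.34%, while 1 member was higher at an unadjusted p below 0.05 and by DESeq2 (Klf2). The median log2 fold change was -0.12 over the members and -0.01 over all genes. Over all genes 1265 were called higher and 996 lower, and 1125 and 1140 with libraries scaled by their totals instead of TMM. Under that scaling 2 members were called as well. The groups did not overlap, with Tespa1-/- below, for 4 of 8 members and for 15.6% of all genes.

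Klf6 was at 442, 433 and 466 CPM in Tespa1+/+ and at 335, 301 and 304 CPM in Tespa1-/- LSKs after 5-FU. All mutant libraries lay below all control libraries, as they did in untreated LSKs. Its log2 fold change was -0.52 ± 0.06 (adjusted p = 3.5e-04, edgeR). Klf10 was at 92.7, 87.0 and 110.0 CPM in Tespa1+/+ and at 61.8, 65.1 and 65.9 CPM in Tespa1-/- LSKs. The groups did not overlap, and the log2 fold change was -0.59 ± 0.10 (adjusted p = 0.00362, edgeR). With all 12 libraries in the fit, where the spread of untreated Tespa1+/+ libraries enters the error, the adjusted p of Klf10 was 0.0779, and the 13 alternatives ran from 8.52e-07 to 0.0779.

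Klf2 was at 171, 171 and 169.5 CPM in Tespa1+/+ and at 186, 204 and 192 CPM in Tespa1-/- LSKs after 5-FU. The mutant libraries were above the control libraries without overlap, opposite in direction to untreated LSKs. The log2 fold change was 0.18 ± 0.06 (adjusted p = 0.0628, edgeR), and DESeq2 and the fit over all 12 libraries called it, with an adjusted p between 0.0337 and 0.181 over the 13 alternatives. Klf4 was at 86.9, 76.6 and 78.3 CPM in Tespa1+/+ and at 66.2, 75.2 and 68.5 CPM in Tespa1-/- LSKs. These values did not overlap, but the difference did not pass (log2 fold change -0.21 ± 0.09, adjusted p = 0.156, edgeR).

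Klf9 was at 38.4, 35.8 and 39.4 CPM against 29.9, 30.7 and 32.4 CPM, with the mutant libraries below and an adjusted p of 0.103 (edgeR). Klf3 in Tespa1-/- LSKs after 5-FU had the widest relative spread of any member in that group, at 46.3, 30.7 and 51.3 CPM, against 42.2, 49.3 and 38.4 CPM in Tespa1+/+. Klf7 was at 15.9, 21.3 and 13.7 CPM against 19.4, 19.9 and 17.7 CPM. Klf13 was at 194, 192 and 208 CPM against 181, 212 and 187 CPM. All 3 of these genes overlapped between the genotypes, and their adjusted p-values ran from 0.644 to 0.957 (edgeR).

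These libraries also differed in transcripts of mature cells. The 10 late neutrophil genes summed to 1047 to 1049 CPM in Tespa1-/- LSKs after 5-FU and to 3.66 to 9.01 CPM in Tespa1+/+ LSKs after 5-FU, and 10 of 10 were called higher. The 8 erythroid genes, Klf1 included, summed to 655 to 690 CPM against 238 to 263 CPM, and 8 of 8 were called higher. Of 10 LSK and stem cell genes, 7 were called lower, among them Kit, Ly6a, Cd34 and Flt3, with sums of 800.0 to 868 CPM against 1330 to 1374 CPM. Among B cell genes 2 of 8 were called higher, and their sums ran from 287 to 299 CPM in Tespa1+/+ and from 327 to 344 CPM in Tespa1-/- LSKs after 5-FU. Monocyte genes were called lower for 2 of 8 (Ccr2 and Ms4a6c), with sums of 284 to 298 CPM in Tespa1-/- against 301 to 326 CPM. T and NK cell genes were called higher for 2 of 7 tested (Cd3e and Nkg7), at 70.9 to 78.0 against 50.6 to 56.1 CPM, and megakaryocyte genes for 1 of 5 (Itga2b), at 164 to 170 against 108 to 123 CPM. Of 3 endothelial genes tested 1 was called higher, while 2 lay lower, 1 of them at an unadjusted p below 0.05. Their median log2 fold change was -0.53, and the whole list summed to 86.4 to 107 against 72.7 to 81.1 CPM. The part of these transcripts in the KLF differences after 5-FU was not tested.

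By the study's own rule, a fold change above 1.5 with an unadjusted p below 0.05, Klf2, Klf4 and Klf6 counted as lower in untreated Tespa1-/- LSKs, against 3.2% of all genes. After 5-FU Klf10 alone did, against 5.94% of all genes, since Klf6 reached a 1.43-fold decrease.

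In Tespa1+/+ LSKs, the third comparison set day 9 after 5-FU against the untreated state. Klf2, Klf4, Klf6 and Klf13 fell, by factors of 1.22 to 2.68. Called were 4 of 8 members lower, against 4.18% of the 17002 genes tested, and 0 of 8 higher, against 3.77%, with 1 at an unadjusted p below 0.05 (Klf9) and 0 by DESeq2. Over all genes 641 were called higher and 711 lower, and 763 and 550 with libraries scaled by their totals instead of TMM. The 4 member calls held under that scaling. Groups did not overlap, with 5-FU below, for 4 of 8 members and for 14.4% of all genes.

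Klf2 fell most of the members, from a mean of 458 ± 20.9 CPM to 170.4 ± 0.762 CPM, a 2.68-fold decrease (log2 fold change -1.42 ± 0.05, adjusted p = 2.12e-06, edgeR). Klf4 fell from 147 ± 23.6 CPM to 80.6 ± 5.55 CPM, with a log2 fold change of -0.87 ± 0.11 (adjusted p = 0.002, edgeR). Klf6 fell by 0.29 ± 0.05 on the log2 scale (adjusted p = 0.0069) and Klf13 by 0.33 ± 0.07 (adjusted p = 0.0164, both edgeR). The Klf13 call was lost when replicate 1 or replicate 2 of Tespa1+/+ LSKs after 5-FU was left out, with adjusted p-values of 0.0709 and 0.0752. Klf9 was above its untreated values in all 3 libraries without passing the test, and Klf3, Klf7 and Klf10 overlapped between the groups.

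Lineage markers moved in the same comparison. All 7 B cell genes tested were called higher after 5-FU, with sums of 64.1 to 77.1 CPM untreated and 287 to 299 CPM after 5-FU. Of 4 megakaryocyte genes tested 3 were called higher, and their list summed to 32.4 to 37.2 CPM untreated and 108 to 123 CPM after 5-FU. The 4 endothelial genes summed to 19.2 to 22.3 CPM and 72.7 to 81.1 CPM, with 1 of 3 tested called higher and Lyve1 at or below 3 counts in all 3 libraries after 5-FU. Among 10 LSK and stem cell genes Slamf1 and Mecom were called higher and Cd34 and Flt3 lower, at sums of 1600.0 to 1672 CPM untreated and 1330 to 1374 CPM after 5-FU. Of 7 erythroid genes tested 3 were called higher (Hbb-bt, Klf1 and Car2), with sums of 144 to 171 CPM untreated and 238 to 263 CPM after 5-FU. Ccr2 was called higher among 8 monocyte genes, whose sums were 240 to 268 CPM and 301 to 326 CPM. The 10 neutrophil genes summed to 0.770 to 1.56 CPM and 3.66 to 9.01 CPM, with 1 of 5 tested called higher, and the 8 T and NK cell genes to 58.8 to 61.8 CPM and 50.6 to 56.1 CPM, with 1 of 3 tested called lower. The part of these transcripts in the 4 member calls was not tested.

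The fourth comparison repeated this in Tespa1-/- LSKs. Klf2, Klf4, Klf6 and Klf10 fell and Klf7 rose. Called were 4 of 8 members lower, against 8.64% of the 17228 genes tested, and 1 of 8 higher, against 10.7%. Groups did not overlap, with 5-FU below, for 5 of 8 members and for 18.2% of all genes. Klf2 fell from 262 ± 15.5 CPM to 194 ± 8.89 CPM (log2 fold change -0.45 ± 0.06, adjusted p = 9.6e-04, edgeR). Klf7 rose from 11.4 ± 1.70 CPM to 19.0 ± 1.13 CPM, a 1.65-fold increase with an adjusted p of 0.0105 (edgeR).

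The other 3 calls were small. The log2 fold change was -0.26 ± 0.07 for Klf4 (adjusted p = 0.034), -0.19 ± 0.05 for Klf6 (adjusted p = 0.0298) and -0.26 ± 0.06 for Klf10 (adjusted p = 0.0183, all edgeR). Klf4 held its call only without replicate 2 of Tespa1-/- LSKs after 5-FU, and Klf6 only without replicate 1 of that group, when each of the 6 libraries was left out in turn. The highest adjusted p was then 0.124 for Klf4 and 0.113 for Klf6. The Klf10 call was lost without any of the 3 untreated Tespa1-/- libraries, at an adjusted p of up to 0.0713. With all 12 libraries in the fit Klf4 and Klf10 were not called (adjusted p = 0.127 and 0.504), and without the count filter Klf4 and Klf6 were not (adjusted p = 0.0648 and 0.0514, all edgeR). Without replicate 2 of Tespa1-/- LSKs after 5-FU, Klf3 was called higher (adjusted p = 0.0112) and Klf13 lower (adjusted p = 0.0228, both edgeR). Klf9 lay at the threshold (log2 fold change -0.29 ± 0.09, adjusted p = 0.0506, edgeR, with 0.0433 to 0.182 over 13 alternatives).

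Cell type markers moved in this comparison as well. Neutrophil genes were called higher after 5-FU for 10 of 10, with sums of 4.74 to 5.94 CPM untreated and 1047 to 1049 CPM after 5-FU, and erythroid genes for 8 of 8, with sums of 161 to 171 CPM and 655 to 690 CPM. Of 8 B cell genes 7 were called higher (42.2 to 48.2 CPM untreated, 327 to 344 CPM after 5-FU), as were 4 of 4 megakaryocyte genes tested (61.2 to 63.5 and 164 to 170 CPM). Of 10 LSK and stem cell genes 3 were called higher and 3 lower, and the sums went from 1334 to 1386 CPM untreated to 800.0 to 868 CPM. Monocyte genes were called in both directions, with Ccr2 and Ly6c2 higher and Csf1r and Ms4a6c lower, and their sums overlapped (275 to 296 and 284 to 298 CPM). T and NK cell genes were called higher for 3 and lower for 2 of 7 tested (sums of 63.7 to 64.6 and 70.9 to 78.0 CPM), and endothelial genes for 1 in each direction of 3 tested (20.9 to 26.0 and 86.4 to 107 CPM). The part of these transcripts in the 5 member calls was not tested.

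**Figure D3:**
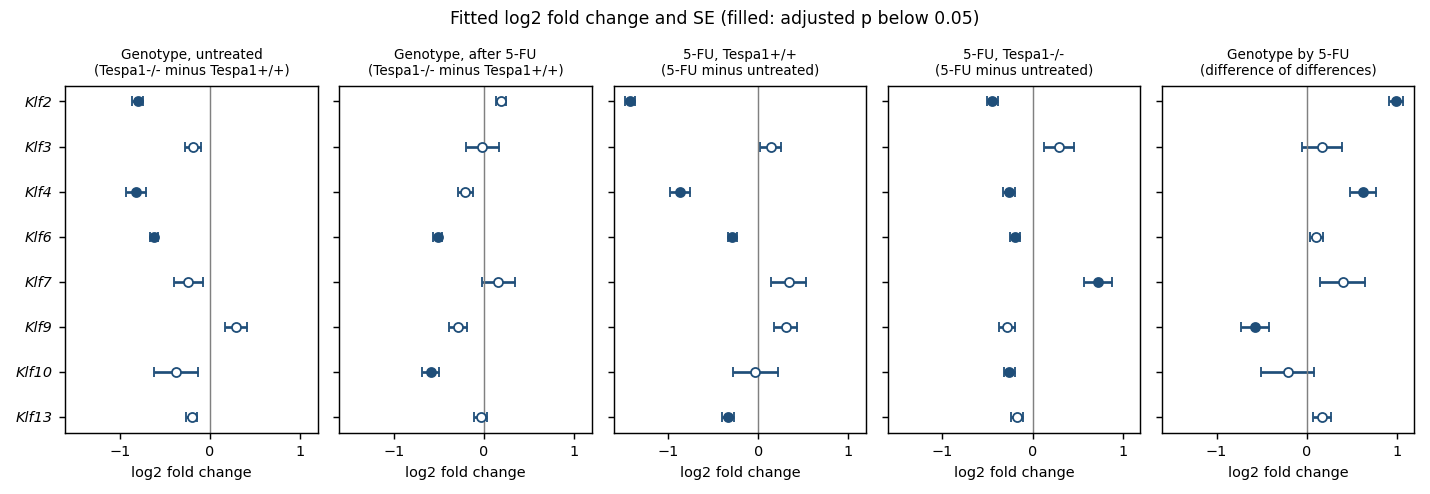
Fitted log2 fold change of each member in the 4 comparisons between groups and for the genotype-by-5-FU term, on a common x axis, with SE as bars and filled points at an adjusted p below 0.05. Klf6 is filled on the negative side in the first 4 panels, and the genotype difference of Klf2 moves from -0.80 untreated to 0.18 after 5-FU.

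Whether the genotype difference itself changed with 5-FU was tested as an interaction over all 12 libraries. The term is the genotype difference after 5-FU minus that in untreated LSKs, so a positive value means that Tespa1-/- LSKs stood higher relative to Tespa1+/+ LSKs after 5-FU. Klf2 and Klf4 were called with a positive term, 2 of 8 members against 3.02% of the 18696 genes tested, and Klf9 with a negative term, 1 of 8 against 1.99%. Cell type genes were called as well, with a positive term for 4 of 10 neutrophil, 5 of 8 erythroid and 3 of 8 B cell genes. The term was negative for 3 of 10 LSK and stem cell genes and 1 of 8 monocyte genes. Of T and NK cell, megakaryocyte and endothelial genes edgeR and DESeq2 called 0, with 2, 1 and 1 at an unadjusted p below 0.05. The part of these transcripts in the KLF terms was not tested. For Klf2 the term was 0.99 ± 0.08 on the log2 scale (adjusted p = 8.11e-06, edgeR), and it was called under all 18 alternatives. For Klf4 it was 0.62 ± 0.14 (adjusted p = 0.0261, edgeR). That call was lost without replicate 1 or 2 of untreated Tespa1-/- LSKs, replicate 2 or 3 of Tespa1+/+ LSKs after 5-FU, or replicate 2 or 3 of Tespa1-/- LSKs after 5-FU, at adjusted p-values of up to 0.0771.

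For Klf9 the term was -0.58 ± 0.15 (adjusted p = 0.0486, edgeR), and among the 12 libraries the call held only when replicate 1 of untreated Tespa1+/+ LSKs was the library left out. Its adjusted p ran from 0.0124 to 0.126 over the 18 alternatives. For Klf6 the term was 0.11 ± 0.07 (adjusted p = 0.467, edgeR), so its genotype difference was called in both conditions and a change between them was not detected. The terms of Klf3, Klf7 and Klf13 were 0.17, 0.40 and 0.17, with adjusted p-values of 0.755, 0.437 and 0.388 (edgeR). For Klf10, called after 5-FU and not in untreated LSKs, the term was -0.21 ± 0.29 (adjusted p = 0.774, edgeR). Without replicate 1 of untreated Tespa1+/+ LSKs it was -0.62 with an adjusted p of 0.0347, in a range of 0.0347 to 1 over the 18 alternatives.

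Relative to untreated Tespa1+/+ LSKs, untreated Tespa1-/- LSKs held 57.3% ± 3.39 of the Klf2 level, Tespa1+/+ LSKs after 5-FU 37.2% ± 0.167 and Tespa1-/- LSKs after 5-FU 42.4% ± 1.94. Klf4 stood at 56.5%, 54.7% and 47.5% in the same order. Klf6 stood at 65.0% in untreated Tespa1-/- LSKs, at 81.7% in Tespa1+/+ LSKs after 5-FU and at 57.2% in Tespa1-/- LSKs after 5-FU. By the group means Klf2 was lowest in Tespa1+/+ LSKs after 5-FU, and Klf4 and Klf6 in Tespa1-/- LSKs after 5-FU. The genotype differences after 5-FU of Klf2 and Klf4, on which their lowest places rest, did not pass the test. That of Klf6 rests on its 5-FU difference in Tespa1-/- LSKs, a call lost in 6 of 13 alternatives.

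Of the 9 other KLF genes, 7 passed the filter in untreated LSKs and 6 after 5-FU in the genotype comparisons. Klf5 and Klf11 fell in untreated Tespa1-/- LSKs. Klf11, a relative of Klf10 that also recruits Sin3A, had a log2 fold change of -0.50 ± 0.08 in untreated LSKs (adjusted p = 0.00874) and -0.43 ± 0.09 after 5-FU (adjusted p = 0.0145, both edgeR). Klf5, best known from epithelium, was at 6.50 ± 2.28 CPM in untreated Tespa1+/+ and 2.45 ± 0.545 CPM in untreated Tespa1-/- LSKs, and at 1.94 ± 0.698 and 5.23 ± 1.11 CPM after 5-FU. It was lower in untreated Tespa1-/- LSKs (adjusted p = 0.0489), higher after 5-FU (adjusted p = 0.027), and its interaction term was 2.83 ± 0.49 (adjusted p = 0.00451, all edgeR). Klf1, the erythroid KLF, was 3.35-fold higher in Tespa1-/- LSKs after 5-FU (adjusted p = 0.00147, edgeR), beside the erythroid genes given above. In untreated Tespa1-/- LSKs its fitted level was 2.24-fold that of Tespa1+/+ LSKs without overlap, which met the study's rule but not the adjusted threshold (unadjusted p = 0.00356, adjusted p = 0.0611, edgeR), while DESeq2 called it. Of the 9 SP genes 4 passed the filter, and 0 were called between genotypes in either condition by edgeR or DESeq2, with 1 at an unadjusted p below 0.05 in untreated LSKs and 2 after 5-FU.

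The kinase cascade that raises Klf2 and Klf4 transcription runs from Map3k3 and Map2k5 to Mapk7 (ERK5) and the MEF2 factors. In untreated Tespa1-/- LSKs 1 of these 6 genes was called lower, against 3.59% of all genes. This was Mef2d, with a log2 fold change of -0.49 ± 0.06 (adjusted p = 0.00309, edgeR). After 5-FU 2 of 6 were called lower between genotypes, against 5.78% of all genes. These were Mef2a and Mef2c, with log2 fold changes of -0.51 ± 0.10 and -0.57 ± 0.11. Of 8 corepressor genes edgeR called 1 lower in untreated Tespa1-/- LSKs, against 3.59% of all genes, and DESeq2 called 2 lower. The edgeR call was Hdac1, lower by 0.44 ± 0.10 on the log2 scale. After 5-FU 0 of 8 were called by edgeR or DESeq2 or had an unadjusted p below 0.05. Of 3 coactivator genes 1 was called lower in untreated Tespa1-/- LSKs, against the same share of all genes. It was Crebbp, which encodes CBP, at -0.31 ± 0.04 (adjusted p = 0.00443, edgeR). Of 4 ubiquitin ligase genes edgeR called 0 in either condition, with 1 at an unadjusted p below 0.05 in each, and DESeq2 called 1 lower after 5-FU.

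Known KLF targets moved in both directions. In untreated Tespa1-/- LSKs 3 of 10 were called lower, against 3.59% of all genes. S1pr1, a sphingosine phosphate receptor of lymphocyte egress under Klf2, was at -1.36 ± 0.22 on the log2 scale. Cdkn1a, the cell-cycle inhibitor p21 under Klf4 and Klf6, was at -1.34 ± 0.07, and Thbd, thrombomodulin, at -0.60 ± 0.14. After 5-FU 5 of 10 were called lower, against 5.78% of all genes, among them Smad7 at -0.90 ± 0.08 and Cdkn1a at -0.86 ± 0.09. Called higher were 2 of 10, against 7.34% of all genes. Of these Lgals3, which macrophages and neutrophils also express, had a log2 fold change of 3.70 ± 0.39. Of 6 glucocorticoid-response genes listed beside Klf9, 1 was called higher in untreated Tespa1-/- LSKs (Fkbp5, 0.55 ± 0.13), against 1.64% of all genes. Called lower there were 2 (Per1, -0.74 ± 0.06, and Sgk1, -1.09 ± 0.18), against 3.59% of all genes. After 5-FU edgeR called 0, 1 in each direction had an unadjusted p below 0.05, and DESeq2 called 1 in each direction. Binding of a KLF to any of these genes was not measured.

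Klf2, Klf4, Klf6 and Klf10 belong to the early-response genes, so 16 others of that kind were set beside them. In untreated Tespa1-/- LSKs 13 of 16 were called lower, against 3.59% of all genes, at a median log2 fold change of -0.56 (0.01 over all genes). After 5-FU 9 of 16 were called lower, against 5.78% of all genes, with a median of -0.28 (-0.01 over all genes). The 4 with the smallest p in untreated LSKs were the nuclear receptor Nr4a1 at -1.31 ± 0.05, the AP-1 subunit Junb at -0.87 ± 0.05, Atf3 at -1.27 ± 0.08 and Fos at -0.35 ± 0.03. Their summed level was 10850 to 11350 CPM in untreated Tespa1+/+, 7551 to 7686 CPM in untreated Tespa1-/-, 7361 to 7421 CPM in Tespa1+/+ after 5-FU and 5821 to 6032 CPM in Tespa1-/- LSKs after 5-FU. By 5-FU, 13 of 16 were called lower in Tespa1+/+ LSKs, against 4.18% of all genes, and 12 of 16 in Tespa1-/- LSKs, against 8.64%. For 7 of 16 the interaction term was called, each time positive as for Klf2 and Klf4, against 3.02% of all genes called with a positive term.

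Heat-shock genes, another class induced by stress, were called higher for 2 of 8 in untreated Tespa1-/- LSKs, against 1.64% of all genes, with a median log2 fold change of 0.04. After 5-FU 1 of 8 was called higher between genotypes, against 7.34% of all genes, 4 were higher at an unadjusted p below 0.05 and by DESeq2, and the median was 0.21. By 5-FU 5 of 8 were called lower in each genotype, against 4.18% of all genes in Tespa1+/+ and 8.64% in Tespa1-/- LSKs. The part of a common early response in the levels of the KLF genes was not tested.

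**Figure D4:**
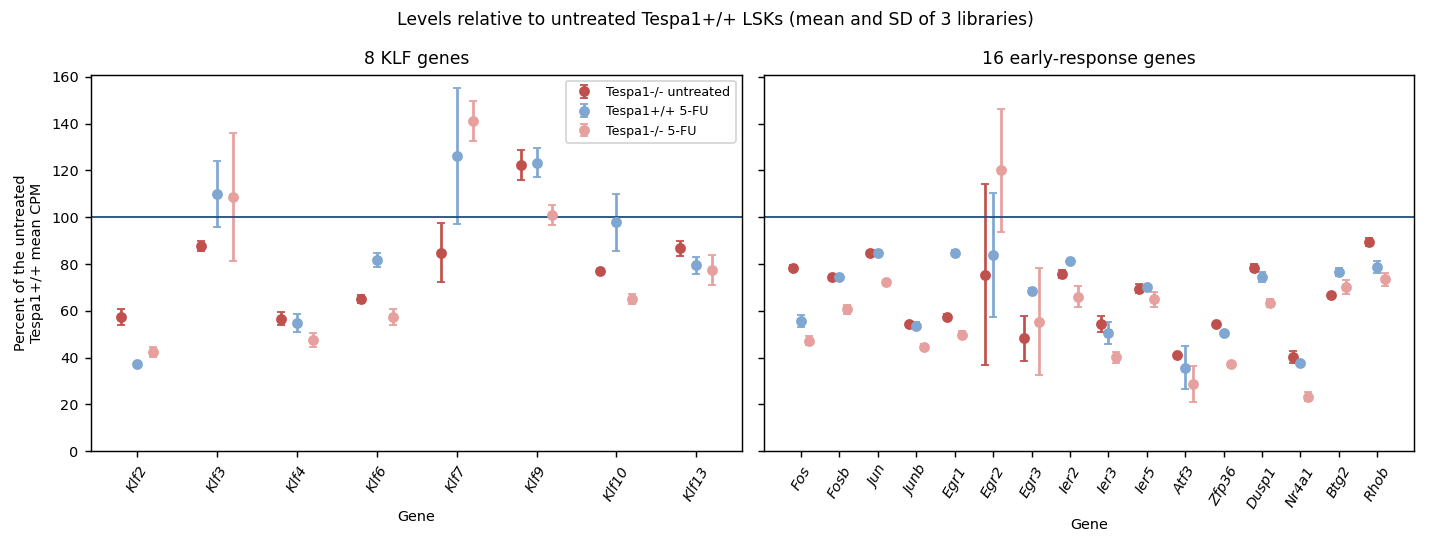
CPM of the 8 KLF genes (left) and of 16 early-response genes (right) as a percent of the mean of untreated Tespa1+/+ LSKs, which is the line at 100. Points are means of 3 libraries and bars are SDs. In untreated Tespa1-/- LSKs the early-response genes lie between 40.2% and 89.4%, and the KLF genes between 56.5% and 122.3%.

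Profiles over the 12 libraries were compared by the Pearson correlation of log2(CPM + 1), as a description without a test. Because the libraries fall into 4 groups, a value reflects the group means as well as the libraries within a group, and the value for deviations from group means (r within groups) is given after it. Among 14929 genes, the 3 most like Klf2 were Nfkbia, an inhibitor of NF-kappa B (r = 0.98, 0.49 within groups), the chemokine gene Cxcl2 (0.97 and 0.16) and Atf4 (0.97 and 0.62). For Klf4 they were Ier5 (0.98 and 0.87), Junb (0.97 and 0.61) and Usp36 (0.97 and 0.68). For Klf6 they were Cdkn1a (0.99 and 0.63), Fgfr1 (0.98 and 0.77) and Smim3 (0.97 and 0.27). Klf13 was most like Rbbp4 (0.95 and 0.92), Fam91a1 (0.95 and 0.75) and Nfkbia (0.93 and 0.80).

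The remaining members had lower values over the 12 libraries. Klf10 was most like Zkscan1 (0.92 and 0.88), Gm1821 (0.88 and 0.77) and Ptprcap (0.87 and 0.77), and Klf3 like Gm28539 (0.92 and 0.95), Nae1 (0.90 and 0.92) and Spata24 (0.87 and 0.85). Klf7 was most like Dgkg (0.90 and 0.57), Crip1 (0.90 and 0.81) and Cdc42ep3 (0.90 and 0.60), and Klf9 like Rn7sk (0.89 and 0.66), 4931428F04Rik (0.89 and 0.75) and Nmral1 (0.88 and 0.83).

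Among the 28 pairs of members, the highest over the 12 libraries were Klf2 with Klf4 (0.91 and 0.74), Klf2 with Klf13 (0.91 and 0.78) and Klf4 with Klf13 (0.90 and 0.62), and the lowest was Klf7 with Klf13 (-0.62 and -0.45). Within groups the order was another, with Klf9 and Klf10 highest (0.53 over the 12 libraries and 0.91 within groups) and Klf3 and Klf13 lowest (-0.48 and -0.70). Klf2 with Klf6 (0.60 and -0.65) and Klf4 with Klf6 (0.81 and -0.48) were among the pairs whose values differed in sign.

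On GRCm38, as the table gives it, Klf2 lies at 8:72319033-72321656, Klf4 at 4:55527143-55532466, Klf6 at 13:5861482-5870394 and Klf10 at 15:38291463-38300706. No other gene of the table overlaps these 4. Klf3 at 5:64803388-64832901 overlaps C230096K16Rik, with at most 210 counts in a library against at least 767 for Klf3. Klf7 at 1:64029447-64122282, Klf9 at 19:23141226-23166911 and Klf13 at 7:63886351-63938915 overlap other genes of the table with at most 15, 11 and 48 counts in a library. The library kit marks strand, but whether the counting used it is not given in the sources used here.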

How the data were processed

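The authors deposited a table of raw counts and FPKM values per gene for 12 paired-end, poly-A, strand-marking libraries of sorted LSKs. The labels name CASAVA 1.8, HISAT2, StringTie and edgeR with build GRCm38; which tool counted is not given in the sources used here. FPKM values, as deposited, equal the counts scaled by library total and a fixed length per gene, checked on 8529 genes. From the counts, edgeR 4.0.16 (R 4.3.3) gave filterByExpr filtering, TMM scaling and quasi-likelihood tests within the 6 libraries compared, or within all 12 for the interaction. Calls need a Benjamini-Hochberg adjusted p below 0.05 over all genes tested. SE is the absolute log2 fold change divided by the square root of F. CPM uses TMM factors over 12 libraries. The fitting script was tested on simulated data.

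Alternatives were DESeq2 1.42.0, RLE size factors, library totals, no filter, at least 10 counts in every library, leaving out each library, a replicate block, all 12 libraries in 1 fit, and a fold above 2. The members and gene lists were chosen with earlier results of these data known. All 8 members are named in every comparison. Other KLF and SP genes get values where called between genotypes, and each list gets at most the 4 genes with the smallest p. The values of some listed genes are not reported here. Replicates differed by more than counting noise (median chi-square 2.08 to 5.87 per gene). No confidence interval beyond these SEs and SDs was computed.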

Additional observations from a re-analysis of the deposited data

Results flagged for a closer look

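For 3 members the test of the difference between the genotype effects in untreated LSKs and after 5-FU passed the threshold (edgeR interaction term over 12 libraries), in all 18 alternatives for Klf2 only. For Klf2 the term was 0.99 on the log2 scale (adjusted p = 8.11e-06): Tespa1-/- LSKs were at 262 against 458 CPM untreated, lower in 3 of 3 libraries, and at 194 against 170.4 CPM after 5-FU, higher in 3 of 3. For Klf4 it was 0.62 (adjusted p = 0.0261), from 83.2 against 147 CPM to 70.0 against 80.6 CPM. This call was lost in 6 of 18 alternatives, each with a library left out. For Klf9 it was -0.58 (adjusted p = 0.0486), from 37.5 against 30.7 CPM to 31.0 against 37.9 CPM. This call was lost in 13 of 18 alternatives: 11 of 12 with a library left out, the replicate block and no filter. Neither genotype difference of Klf9 passed on its own. Groups of 3 libraries are too small for a search for outlying samples.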

How the results depend on the processing

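The number of members called stayed within 1.5 times the reported number under every alternative for the genotype comparisons and for 5-FU in Tespa1+/+ LSKs. For 5-FU in Tespa1-/- LSKs, 5 members were called, 3 without the filter, 3 with all 12 libraries in the fit, and 2 to 6 with a library left out. The interaction called 3, and 1 to 4 with a library left out. Above a fold of 2 in place of 1.5, 0 members passed the study's rule in either genotype comparison. Members that were not called turned direction in these cases: Klf10 between untreated genotypes (-0.59 to 0.029 with a library left out), Klf3 (-0.17 to 0.17) and Klf13 (-0.11 to 0.011) between genotypes after 5-FU, Klf10 by 5-FU in Tespa1+/+ LSKs (-0.25 to 0.37, 0.012 with library totals, 0.045 with the replicate block) and the Klf10 interaction (-0.62 to 0.0053). Of 560 member fits, 40 lost and 9 gained a call. Over all genes, 892 were called between untreated genotypes (1427 by DESeq2, 454 with the block, 338 to 808 with a library left out), 1352 by 5-FU in Tespa1+/+ LSKs (2062 by DESeq2, 2114 in the 12-library fit, 783 to 1102) and 936 in the interaction (1535 by DESeq2, 573 to 862). Mean CPM moved by more than its SD with library totals for 1 of 32 member means. The cause of these changes was not tested.

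Replicate numbers are shared between groups, but deviations of same-numbered libraries were uncorrelated over all genes (r from -0.06 to 0.03), so no pairing by number was detected. With the replicate block, 3 members were called between untreated genotypes, 2 after 5-FU, 4 by 5-FU in each genotype and 2 in the interaction. It lost the calls of Klf4 by 5-FU in Tespa1-/- LSKs (adjusted p = 0.0505) and of Klf9 in the interaction (adjusted p = 0.054, both edgeR). With 3 libraries a group, a difference that missed the threshold is not shown to be absent.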
